A study of Homo sapiens with 8 samples.

Results

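Oxidative phosphorylation is carried out by 5 protein complexes of the inner mitochondrial membrane. Complexes I to IV pass electrons from NADH and succinate to oxygen, and complexes I, III and IV pump protons while doing so. Complex V, the ATP synthase, lets the protons flow back and makes ATP. Most subunits are encoded in the nucleus, made in the cytosol and imported, and dedicated assembly factors that are absent from the finished complexes put them together.

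The nuclear subunit genes were followed in PNT2, a cell line established from human prostate epithelium by immortalization, on Affymetrix human exon arrays summarised to 1 linear intensity per gene-level row. The siESRP group is 4 samples of cells given small interfering RNA against ESRP1 and ESRP2, which encode a pair of splicing regulators found in epithelia. The siGFP group is 4 samples of the same line given small interfering RNA against green fluorescent protein. The labels give no time after transfection. Nothing in them tells whether the samples came from separate cultures, and the p-values therefore reflect the spread among these 8 samples alone, possibly a technical one.

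Rows were taken as subunit rows when the platform annotation gave exactly 1 gene symbol and that symbol belonged to the NDUFA, NDUFB, NDUFC, NDUFS, NDUFV, SDH, UQCR, COX4 to COX8 or ATP5F1, ATP5M and ATP5P families, leaving out assembly factors and pseudogenes. This gave 66 of 18495 rows, for 65 genes, of which NDUFB4 had a pair of rows. There were 30 rows for complex I, 3 for complex II, 5 for complex III, 16 for complex IV and 12 for complex V. Another 17 genes of these families were represented only in rows shared with other symbols and these, with a few others, are not analysed here. Both group means were at least 100 in 61 of the 66 rows. The means of COX7A1, COX7B2 and COX8C were under 50, where a level cannot be told from background. Many of these genes have processed pseudogene copies, and how far such copies add to a row is unknown.

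The labels held at the level of the targets. The ESRP1 row was 568, 499, 660 and 599 on the siESRP arrays, against 2232, 2527, 2617 and 2379 on the siGFP arrays, and the row shared by ESRP2 and NFATC3 averaged 148 ± 27.4 in siESRP and 531 ± 33.4 in siGFP (SD, n = 4 each). Over all 18495 rows, 20.2% were called, meaning that limma's Benjamini-Hochberg adjusted p was under 0.05 for siESRP against siGFP. Calls were 10.9% for higher and 9.31% for lower in siESRP, and the median log2 difference was −0.02. All 5 general epithelial markers were bright, their summed intensity being 23981 to 24852 on siESRP arrays and 20991 to 22135 on siGFP arrays. CDH1, KRT18 and KRT19 among them rose. The basal list, 2 of 4 genes measured, summed to 571 to 628 in siESRP and 775 to 1110 in siGFP: KRT14 fell (2.06-fold, limma adjusted p = 0.00465) and KRT15 rose (limma adjusted p = 0.00878). The 4 fibroblast markers summed to 322 to 378 in siESRP and 407 to 472 in siGFP, with COL1A1 lower (limma adjusted p = 0.00649). The 3 endothelial markers summed to 313 to 395 in siESRP and 233 to 291 in siGFP, with CDH5 higher (limma adjusted p = 0.0333) and PECAM1 and EMCN under 50. The part of these markers in the values below was not tested. Of 4 leukocyte markers PTPRC, CD3E and LCP1 had means under 50 in both groups, and the list summed to 123 to 215 in siESRP and 129 to 151 in siGFP.

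Few subunit rows changed after the knockdown, but their small differences leaned down. Of 66 rows, 7 fell, 1 rose and 58 did not pass, so 12.1% were called, against 20.2% of all rows and 30.5% of the rows with a mean intensity of at least 500. The rows that fell were NDUFB10, NDUFA2, NDUFB9, NDUFB4 and NDUFS7 of complex I, UQCR10 of complex III and COX8A of complex IV. NDUFS3 of complex I rose. Among all 66, 54 had a log2 difference below 0 (81.8%, against 53.0% of all rows). The median was −0.13, with quartiles of −0.22 and −0.02, whereas all rows had quartiles of −0.23 and 0.19. Without overlap between the groups were 13 of the 66 rows, with siESRP below in 12 and above in 1. That is 19.7%, against 24.7% of all rows and 36.9% of rows with a mean of at least 500. Differences were small: 43 rows lay within 0.2 of 0 (65.2%, against 47.6% of all rows and 52.1% of rows with a mean of at least 500). In 48 of the 66 rows the 95% confidence interval stayed within a 1.5-fold change in either direction. It did so in 9898 of all 18495 rows and in 5384 of the 7209 rows with a mean of at least 500. Only NDUFB10, and COX8C at background, differed by more than 1.5-fold (3.03%, against 12.4% of all rows and 7.82% of rows with a mean of at least 500).

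The size of this lean relative to all rows depends on the scaling. With the arrays left as deposited the subunit median was −0.14 and that of all rows −0.10. With median scaling they were −0.16 and −0.11. The distance between the subunits and all rows was thus smaller there than after quantile normalization. The share of all rows above 0 was 45% after quantile normalization, 37% as deposited and 35.2% with median scaling. Subunit rows below 0 were counted after quantile normalization only, so that contrast with all rows holds for this scaling alone. Without siESRP replicate 4, the array with the lowest subunit levels, the median was −0.07. The calls depended on the scaling too: left as deposited, NDUFB10 alone passed, and with median scaling 5 of the 8 rows did. Over all rows 3729 passed in the main run, 1673 as deposited and 3057 with median scaling.

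**Figure D1:**
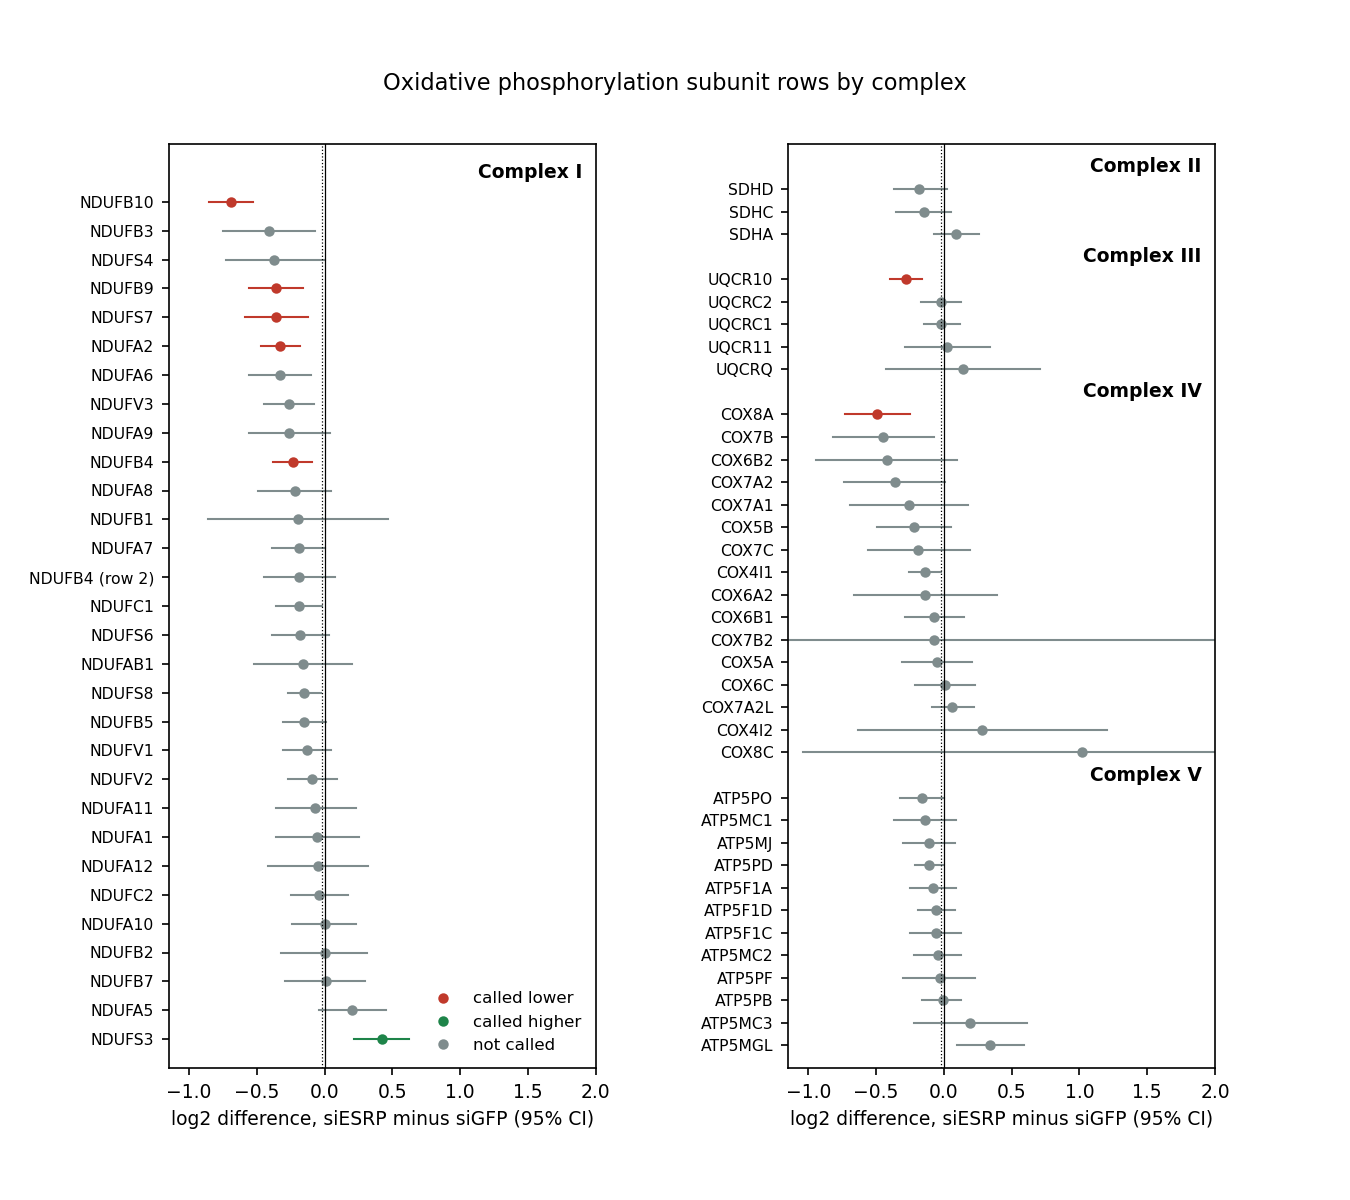
log2 difference between siESRP and siGFP with its 95% confidence interval for each of the 66 subunit rows, ordered by difference within each complex; the dotted line is the median of all rows (−0.02), and the intervals of COX7B2 and COX8C run past the axis. Of the 66 rows, 54 lie below 0, 7 are called lower and NDUFS3 is called higher.

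Promoters are shown for the 5 subunit genes whose calls held with each array left out in turn, so that the sequences of those that fell and of the one that rose can be read side by side. The sequences are from RefSeq on GRCh38.p14 and run from 100 bases before to 30 bases after the annotated start, 5′ to 3′ in the direction of the gene. Capitals mark a match to one of 3 motifs on either strand, namely the palindromic NRF1 consensus, CCGGAAG (the ETS family, to which GABPA belongs) and AAGATGGC (YY1), factors known to bind promoters of subunit genes. Of these letters, the first 4 promoters hold a match only in COX8A, and NDUFS3, the gene that rose, holds the ETS letters too.
NDUFB10, chr16:1959438-1959567, plus strand: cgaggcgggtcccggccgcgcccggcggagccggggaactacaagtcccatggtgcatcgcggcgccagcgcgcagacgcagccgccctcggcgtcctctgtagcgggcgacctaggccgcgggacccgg
NDUFA2, chr5:140647601-140647730, minus strand: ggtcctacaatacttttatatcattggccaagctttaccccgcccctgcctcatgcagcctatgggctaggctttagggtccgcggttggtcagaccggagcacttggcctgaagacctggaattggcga
UQCR10, chr22:29767269-29767398, plus strand: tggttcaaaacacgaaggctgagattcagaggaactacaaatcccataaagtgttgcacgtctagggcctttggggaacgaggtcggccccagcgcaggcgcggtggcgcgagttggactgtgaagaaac
COX8A, chr11:63974520-63974649, plus strand: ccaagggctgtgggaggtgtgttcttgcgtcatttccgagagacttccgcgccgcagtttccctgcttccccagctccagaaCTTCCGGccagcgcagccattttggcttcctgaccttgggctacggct
NDUFS3, chr11:47578974-47579103, plus strand: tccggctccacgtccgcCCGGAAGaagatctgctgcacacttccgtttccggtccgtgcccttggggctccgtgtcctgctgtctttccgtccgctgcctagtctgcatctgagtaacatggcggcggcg

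Over the longer window of 250 bases before to 50 after the start, 55 of the 65 subunit genes matched the promoter table, with 66 windows because some genes have several starts. ATP5F1D, ATP5MC3, ATP5MGL, COX4I2, COX6C, COX7A1, NDUFB5, NDUFB9, NDUFC2 and SDHC were not matched. The YY1 letters were in 15.2% of the subunit windows, against 2.89% of all windows in the table and 3.53% of those of protein-coding genes. The ETS letters were in 21.2%, against 10.3% of all and 12.8% of protein-coding windows. The NRF1 letters were in 6.06%, against 1.24% of all and 1.5% of protein-coding windows. Of the 6 genes that fell and had a window, NDUFB4 held the NRF1 letters, COX8A the ETS letters and NDUFS7 the YY1 letters, and NDUFB10, NDUFA2 and UQCR10 held none of them. These matches describe letters in a window and say nothing of whether a factor is bound.

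Complex I, the NADH dehydrogenase, held 6 of the 8 calls. Of its 30 rows, 5 fell and 1 rose. This share was close to the 20.2% of all rows and below the 30.5% of rows with a mean of at least 500. A difference below 0 was found in 27 (90.0%, against 53.0% of all rows), and the median was −0.18. In 9 of the 30 rows the groups stood apart without overlap, with siESRP below in 8. Over all rows 24.7% did not overlap and 12% had siESRP below. Of the 7209 rows with a mean of at least 500, 36.9% did not overlap and 1361 had siESRP below. The share of complex I rows without overlap was thus above that of all rows and below that of these brighter rows. NDUFB10, an accessory subunit of the membrane arm, was 593, 567, 650 and 584 in siESRP, against 1020, 879, 965 and 1011 in siGFP. Every siESRP array was below every siGFP array by more than the spread within either group. The means were 599 ± 36.2 and 969 ± 64.4 (SD, n = 4 each), 1.62-fold lower in siESRP (log2 difference −0.69 ± 0.07 SE, limma adjusted p = 0.000767). This call held under all 15 alternatives, with adjusted p up to 0.0158.

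NDUFA2, an accessory subunit of the matrix arm with a thioredoxin-like fold, was 876, 829, 982 and 882 in siESRP, against 1128, 1169, 1104 and 1071 in siGFP. The groups did not overlap, and the row was 1.25-fold lower (log2 difference −0.33 ± 0.06 SE, limma adjusted p = 0.0102). NDUFB9, an accessory subunit of the membrane arm, was 1840, 1634, 1866 and 1789 in siESRP and 2021, 2458, 2503 and 2187 in siGFP, 1.28-fold lower (limma adjusted p = 0.0236). NDUFS7, a core subunit that carries the iron-sulfur cluster next to the quinone site, was 291, 328, 266 and 300 in siESRP and 441, 341, 355 and 386 in siGFP. The highest siESRP array lay just under the lowest siGFP array, and the row was 1.28-fold lower (limma adjusted p = 0.0448).

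The pair of NDUFB4 rows, for another membrane-arm accessory subunit, differed in their call. One was 1602, 1503, 1545 and 1719 in siESRP and 1810, 2031, 1847 and 1797 in siGFP, without overlap (log2 difference −0.23 ± 0.06 SE, limma adjusted p = 0.0376). The other averaged 1524 ± 54.2 in siESRP and 1748 ± 263 in siGFP (SD, n = 4 each) and did not pass (log2 difference −0.19, limma adjusted p = 0.306), with siGFP replicate 1 at 1399 below all siESRP arrays.

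The calls of NDUFB4, NDUFB9 and NDUFS7 lay near the threshold and were lost when any of several arrays was left out, while the sizes of the differences changed little. NDUFB4 lost its call without siESRP replicates 1, 2 and 3 (limma adjusted p = 0.0847, 0.0877 and 0.0762) and without siGFP replicates 1 to 4 (0.0614, 0.0734, 0.0749 and 0.0605). NDUFB9 lost its call without siESRP replicates 1, 2 and 4 (0.0514, 0.0587 and 0.0578) and without siGFP replicates 2 and 3 (0.0593 and 0.0554). NDUFS7 lost its call without siESRP replicates 1, 3 and 4 (0.107, 0.0861 and 0.0918) and without siGFP replicates 1, 3 and 4 (0.0751, 0.066 and 0.103). Over all 15 alternatives the log2 difference lay between −0.27 and −0.19 for NDUFB4, between −0.42 and −0.32 for NDUFB9 and between −0.41 and −0.29 for NDUFS7.

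NDUFS3, a core subunit of the arm that leads electrons to quinone, was the only subunit row that rose. It was 1789, 1940, 1605 and 1489 in siESRP, against 1292, 1306, 1220 and 1256 in siGFP. All siESRP arrays were above all siGFP arrays, and they were more spread out. The means were 1706 ± 199 and 1268 ± 38.8 (SD, n = 4 each), 1.34-fold higher in siESRP (log2 difference 0.42 ± 0.09 SE, limma adjusted p = 0.0143). It passed with each array left out in turn, and did not pass on the deposited scale (limma adjusted p = 0.0997).

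**Figure D2:**
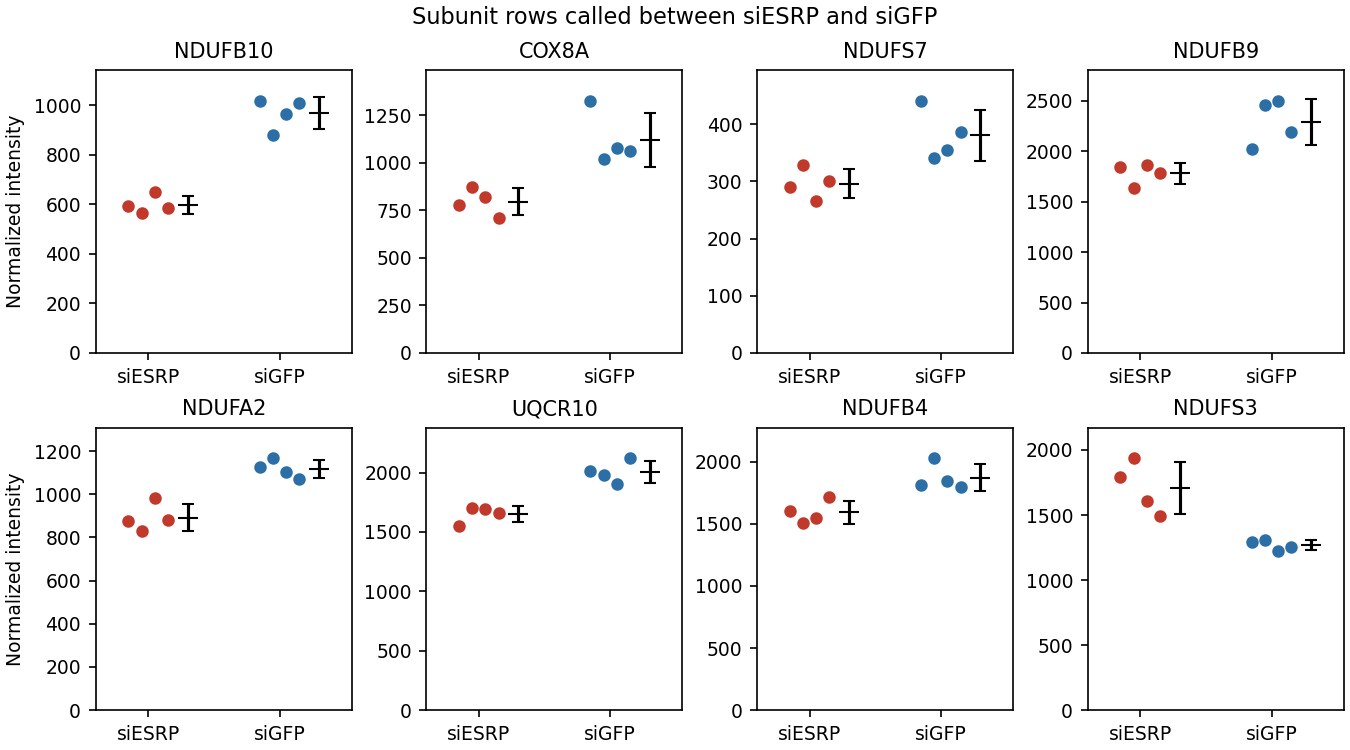
Quantile-normalized intensity of the 8 called subunit rows on each array, siESRP in red and siGFP in blue, with the mean ± SD of 4 arrays beside the points; axes start at 0. The groups do not overlap in any of the 8 panels, and NDUFS3 is the one with siESRP above.

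The 5 core rows of complex I went different ways. Beside NDUFS3 and NDUFS7, the core subunits NDUFS8, NDUFV1 and NDUFV2 had log2 differences of −0.15, −0.13 and −0.09 and did not pass. NDUFS8, another iron-sulfur protein, was 1010, 1029, 1035 and 1049 in siESRP and 1247, 1076, 1121 and 1140 in siGFP, without overlap (limma adjusted p = 0.09). Of the 25 accessory rows, 4 fell and none rose. This share was below the 20.2% of all rows and the 30.5% of rows with a mean of at least 500. A difference below 0 was found in 23 of the 25, where 53.0% of all rows had one. NDUFV3 and NDUFA6 came closest to the threshold without passing. NDUFV3, of the NADH-binding module, averaged 770 ± 57.4 in siESRP and 925 ± 75.2 in siGFP (log2 difference −0.26, limma adjusted p = 0.0566). NDUFA6 averaged 1190 ± 148 in siESRP and 1484 ± 61.0 in siGFP without overlap (SD, n = 4 each; log2 difference −0.33, limma adjusted p = 0.0568). NDUFA10, NDUFB2 and NDUFB7 had differences of −0.00, −0.00 and 0.01.

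Complex II, succinate dehydrogenase, links the citric acid cycle to the chain. None of its 3 rows passed limma's test, and none had an unadjusted p under 0.05, where 20.2% and 32.6% of all rows did. The flavoprotein SDHA averaged 1673 ± 142 in siESRP and 1564 ± 68.2 in siGFP (log2 difference 0.09, 95% confidence interval −0.07 to 0.26). The membrane anchors SDHC and SDHD averaged 1770 ± 186 and 631 ± 56.6 in siESRP, against 1961 ± 115 and 712 ± 50.6 in siGFP (SD, n = 4 each). Their log2 differences were −0.15 (95% confidence interval −0.35 to 0.05) and −0.18 (−0.37 to 0.02).

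In complex III, the cytochrome bc1 complex, 1 of 5 rows fell. UQCR10, a small accessory subunit, was 1552, 1698, 1693 and 1662 in siESRP, against 2016, 1978, 1900 and 2124 in siGFP. The groups were well apart, and the row was 1.21-fold lower (log2 difference −0.28 ± 0.05 SE, limma adjusted p = 0.00968). The large core proteins UQCRC1 and UQCRC2 differed little, with log2 differences of −0.02 each and 95% confidence intervals of −0.15 to 0.12 and −0.17 to 0.13. UQCRC2 averaged 4149 ± 287 in siESRP and 4203 ± 181 in siGFP (SD, n = 4 each). UQCRQ, another small accessory subunit, averaged 1426 ± 321 in siESRP and 1314 ± 382 in siGFP, and its spread within groups exceeded the difference. UQCR11 had a difference of 0.02.

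Complex IV, cytochrome c oxidase, reduces oxygen to water. Of its 16 rows 1 was called, and it fell. This share was below the 20.2% of all rows and the 30.5% of rows with a mean of at least 500. A difference below 0 was found in 12 of the 16, where 53.0% of all rows had one, and the median was −0.14. COX8A, a small membrane subunit in the form found in most tissues, was 780, 873, 820 and 708 in siESRP, against 1327, 1017, 1076 and 1061 in siGFP. No siESRP array reached the lowest siGFP array. The means were 795 ± 69.9 and 1120 ± 140 (SD, n = 4 each), 1.41-fold lower in siESRP (log2 difference −0.49 ± 0.10 SE, limma adjusted p = 0.0159). It passed with each array left out in turn, also without siGFP replicate 1, its highest array (limma adjusted p = 0.0206).

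The other subunits of complex IV did not pass. COX7B was 550, 500, 388 and 405 in siESRP and 622, 522, 590 and 780 in siGFP, with siESRP replicate 1 inside the siGFP range (log2 difference −0.45, limma adjusted p = 0.0978). COX4I1, the form of subunit 4 found in most tissues, averaged 363 ± 13.5 in siESRP and 401 ± 19.7 in siGFP without overlap (SD, n = 4 each; log2 difference −0.14, limma adjusted p = 0.0945). COX7A2 averaged 506 ± 118 in siESRP and 639 ± 23.3 in siGFP (log2 difference −0.36, limma adjusted p = 0.162). COX6B1 had a difference of −0.07.

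The isoforms with restricted tissue use were dim. COX4I2, the lung form of subunit 4, averaged 63.3 ± 17.9 in siESRP and 55.2 ± 23.7 in siGFP, and COX6B2, the testis form of subunit 6B, averaged 89.1 ± 18.9 in siESRP and 120 ± 29.1 in siGFP (SD, n = 4 each). COX6A2, a heart and muscle form, averaged 187 ± 59.2 in siESRP and 202 ± 35.9 in siGFP. COX7A1, another heart and muscle form, averaged 30.3 in siESRP and 36.9 in siGFP. COX7B2 averaged 5.34 in siESRP and 5.72 in siGFP, and COX8C averaged 12.8 in siESRP and 7.34 in siGFP, and on 2 arrays COX7B2, and on 1 array COX8C, lay below 0 before the floor. None of these 6 rows passed limma's test or had an unadjusted p under 0.05, where 20.2% and 32.6% of all rows did.

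Complex V had no call. None of its 12 rows passed limma's test, where 20.2% of all rows did. An unadjusted p under 0.05 was found in 2 (16.7%, against 32.6% of all rows), and the median was −0.06. In 10 of the 12 rows the 95% confidence interval stayed within 1.5-fold, and 11 lay within 0.2 of 0 (91.7%, against 47.6% of all rows). The catalytic F1 head was represented by ATP5F1A, ATP5F1C and ATP5F1D, whose log2 differences were −0.08, −0.06 and −0.06. ATP5F1A, the alpha subunit, was 3014, 3036, 3187 and 2622 in siESRP and 3345, 3048, 2993 and 3146 in siGFP, so the groups overlapped. Of the 4 rows of the peripheral stalk, which holds the head still, ATP5PD had the smallest p. It was 4978, 5130, 5010 and 4629 in siESRP, against 5411, 5259, 5312 and 5286 in siGFP, without overlap (log2 difference −0.11 ± 0.04 SE, limma adjusted p = 0.13).

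ATP5MC1, ATP5MC2 and ATP5MC3 encode precursors of the same subunit c, which forms the rotating ring, and none of them passed. ATP5MC1 averaged 1147 ± 116 in siESRP and 1260 ± 120 in siGFP, and ATP5MC2 averaged 1813 ± 158 in siESRP and 1863 ± 82.7 in siGFP (SD, n = 4 each). ATP5MC3 was 989, 1009, 1664 and 1019 in siESRP and 1013, 1080, 977 and 929 in siGFP. Its siESRP replicate 3 stood far above the other 7 arrays, and the log2 difference was 0.19 (95% confidence interval −0.22 to 0.61). ATP5MGL, a gene similar to that of subunit g, was 209, 224, 228 and 187 in siESRP and 165, 194, 144 and 167 in siGFP (log2 difference 0.34, limma adjusted p = 0.0602). Its similarity to ATP5MG makes this value uncertain.

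Array by array, complex I was the complex whose median over rows was lower on every siESRP array than on any siGFP array, though single rows such as NDUFS3 were not. The median over its rows of log2 intensity minus the mean of the siGFP arrays was −0.17, −0.11, −0.16 and −0.29 on siESRP replicates 1 to 4, against 0.05, −0.01, −0.03 and 0.01 on siGFP replicates 1 to 4. For complexes II, III, IV and V the groups overlapped. Complex IV ran from −0.19 to −0.03 in siESRP and from −0.11 to 0.17 in siGFP, and complex V from −0.11 to 0.03 in siESRP and from −0.08 to 0.08 in siGFP. Over all 66 subunit rows the medians were −0.13, −0.08, −0.05 and −0.20 in siESRP and 0.03, 0.00, −0.03 and 0.02 in siGFP. Whether the complexes differ from each other was not tested.

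**Figure D3:**
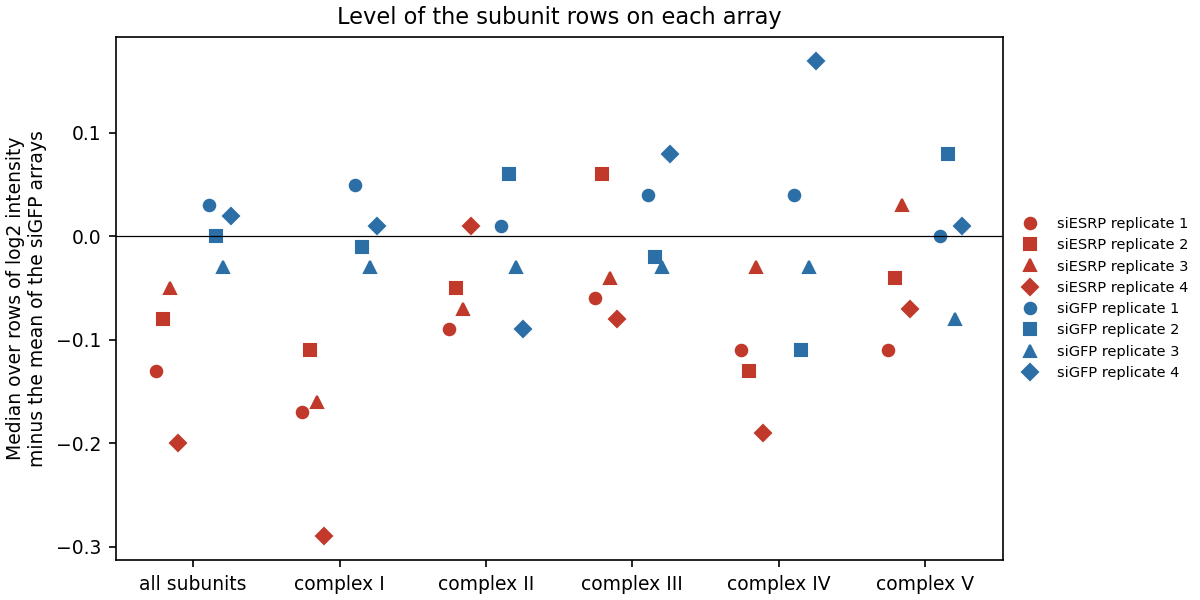
Median over the subunit rows, for all subunits and by complex, of log2 intensity minus the row's siGFP mean on each of the 8 arrays; siESRP in red left of siGFP in blue, with 1 symbol per replicate number. All 4 siESRP arrays lie below all 4 siGFP arrays for complex I, and the lowest point is siESRP replicate 4 at −0.29.

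Assembly factors of the same complexes held a larger share of calls than the subunits. Of 39 measured, of 51 listed, 14 fell, 1 rose and 24 did not pass (38.5%, against 20.2% of all rows and 30.5% of rows with a mean of at least 500), and the median log2 difference was −0.35. ECSIT, which takes part in complex I assembly, was 338, 317, 364 and 361 in siESRP, against 620, 545, 557 and 567 in siGFP, 1.66-fold lower (log2 difference −0.73 ± 0.06 SE, limma adjusted p = 0.000569). TMEM126B, of the same assembly complex, averaged 1896 ± 138 in siESRP and 2750 ± 98.9 in siGFP (1.45-fold lower, limma adjusted p = 0.00154). TACO1, a translational activator of the mitochondrial COX1 message, was 922, 928, 938 and 910 in siESRP and 1278, 1167, 1206 and 1169 in siGFP (1.30-fold lower, limma adjusted p = 0.00135, and 0.107 with the arrays left as deposited). For ECSIT and TACO1 the groups were far apart compared with the spread within siESRP.

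The other assembly factors that fell were NDUFAF6 and TMEM186 for complex I, SDHAF2 and SDHAF3 for complex II, BCS1L and LYRM7 for complex III, COX10, COA4, COA5 and COA7 for complex IV, and ATPAF2 for complex V. The one that rose was UQCC1, which acts in complex III assembly, with 932, 1058, 873 and 973 in siESRP against 497, 612, 505 and 614 in siGFP (1.73-fold higher, limma adjusted p = 0.00216). COX10, which acts in making the heme of cytochrome oxidase, averaged 706 ± 53.0 in siESRP and 1080 ± 91.4 in siGFP (1.53-fold lower, limma adjusted p = 0.00269). The values of COX10 with arrays left out are not reported here. The count that fell was 5 with the arrays left as deposited and 9 without siESRP replicate 1 or 2 or siGFP replicate 2 or 3. Over all rows, calls in either direction dropped from 3729 to 1673 with the arrays left as deposited. Whether assembly factors and subunits differ was not tested.

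Regulators of mitochondrial biogenesis changed in 2 of 13 measured genes, of 18 listed, a share of 15.4% that is below the 20.2% of all rows. PPRC1, a coactivator related to PGC-1alpha, was 682, 700, 697 and 708 in siESRP, against 1099, 1014, 977 and 976 in siGFP, 1.46-fold lower (limma adjusted p = 0.000592). POLRMT, the mitochondrial RNA polymerase, averaged 624 ± 49.4 in siESRP and 881 ± 47.7 in siGFP, 1.41-fold lower (limma adjusted p = 0.00342). TFAM, which packages mitochondrial DNA, and NRF1, a transcription factor for many subunit genes, did not pass (log2 differences 0.06 and −0.16). PPARGC1A, which encodes PGC-1alpha, averaged 20.9 in siESRP and 23.6 in siGFP, both at background.

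Of 13 tricarboxylic acid cycle and pyruvate dehydrogenase genes, of 16 listed, 3 fell. That is 23.1%, against 20.2% of all rows and 30.5% of rows with a mean of at least 500. A difference below 0 was found in 12 (92.3%, against 53.0% of all rows), with a median of −0.15. IDH3G, a regulatory subunit of isocitrate dehydrogenase, averaged 992 ± 51.5 in siESRP and 1383 ± 75.8 in siGFP (1.39-fold lower, limma adjusted p = 0.00194). CS, citrate synthase, and PDHB averaged 2036 and 1433 in siESRP and 2363 and 1744 in siGFP (limma adjusted p = 0.0344 and 0.0427). The CS call was lost without siESRP replicates 1 to 4 (0.0919, 0.0659, 0.0514 and 0.0803) and without siGFP replicates 1, 2 and 4 (0.0766, 0.0619 and 0.0862). The PDHB call was lost without siESRP replicates 1, 2 and 4 (0.0908, 0.0937 and 0.102) and without siGFP replicates 1 to 4 (0.0982, 0.0603, 0.1 and 0.0566). With the arrays left as deposited neither passed (0.263 for CS and 0.29 for PDHB), nor did CS without the dimmest 25% of rows (0.0603) or PDHB with median scaling (0.0711).

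Of 16 genes for import and membrane shape, of 22 listed, 5 fell and 2 rose (43.8% called, against 20.2% of all rows and 30.5% of rows with a mean of at least 500), and the median was −0.19. IMMT, the core protein of the cristae junctions, was 1514, 1267, 1286 and 1435 in siESRP and 2556, 1891, 2473 and 1922 in siGFP, 1.60-fold lower (limma adjusted p = 0.00992, and 0.108 with the arrays left as deposited). TOMM40, the channel of the outer membrane, averaged 1313 ± 101 in siESRP and 1783 ± 174 in siGFP, 1.36-fold lower (limma adjusted p = 0.0128). MFN1, a mitofusin that joins outer membranes, rose to 2041 ± 96.0 in siESRP, against 1698 ± 97.7 in siGFP (1.20-fold, limma adjusted p = 0.018), and lost its call without siESRP replicate 1 (0.0509), with median scaling (0.173) and with the arrays left as deposited (0.355). OPA1, which fuses inner membranes, also rose, averaging 1394 ± 56.3 in siESRP and 1130 ± 117 in siGFP (limma adjusted p = 0.0387). Its values with arrays left out are not reported here. Of 6 measured carriers and subunits outside these families none passed limma's test, where 20.2% of all rows did. An unadjusted p under 0.05 was found in 2 (33.3%, against 32.6% of all rows). CYC1, cytochrome c1 of complex III, averaged 1726 ± 188 in siESRP and 2050 ± 147 in siGFP (log2 difference −0.25, limma adjusted p = 0.0947), and CYCS, cytochrome c, had a difference of 0.15.

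**Figure D4:**
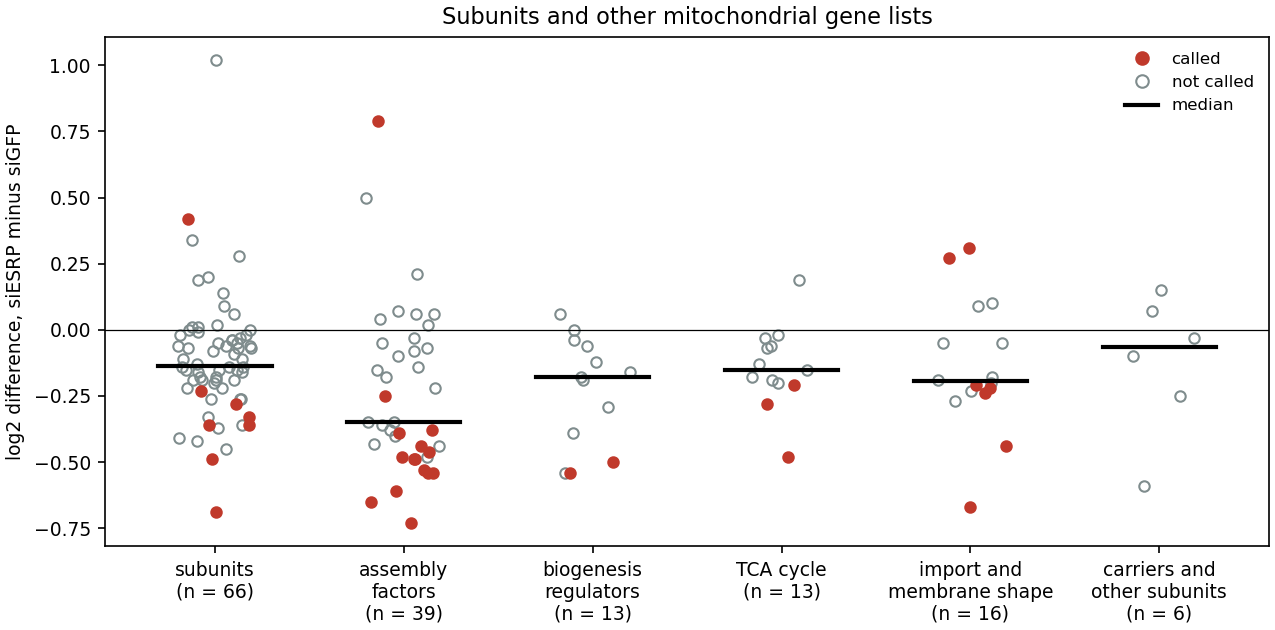
log2 difference between siESRP and siGFP for the 66 subunit rows and for genes of 5 other mitochondrial lists; filled points are called, open points are not, and bars are medians. The subunit median is −0.13 and the assembly factor median −0.35, with 15 of 39 assembly factors called.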

How the data were processed

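Each sample was hybridised to 1 Affymetrix human exon array after ribosomal RNA reduction and labelling of sense-strand DNA, per the labels' protocols. The authors deposited linear intensities, 1 per gene-level row and array, as whole numbers. For their background correction, probe summary and scaling, the method is not given in the sources used here. Array medians were 233 to 286, and 2.7% to 4.02% of values per array were below 0. The number of arrays limits the precision.

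The linear values were brought to common quantiles across arrays, negative values were raised to 0, and limma was run on log2(value + 1). The fit used limma 3.58.1 in R 4.3.3 (lmFit and eBayes, two-sided, no covariate) over all 18495 rows, with Benjamini-Hochberg adjustment over all of them. Intensities printed are quantile normalized, and fold changes are on the log2(value + 1) scale. Where a group mean was under 50 no fold is given. The steps were tested on simulated data. Row names are those of the platform annotation in GEO. Their Entrez IDs were looked up in RefSeq (GRCh38.p14), and no subunit symbol changed. The companion lists use each gene's row with the highest mean, and a row with several symbols is not named except that of ESRP2 and NFATC3.

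The subunits and lists were chosen with earlier results of these data known. Named by rule were the target rows, every called subunit row, the 2 uncalled rows with the smallest p in each complex, the tissue isoforms and their partners, the subunit c genes, and up to 3 called genes of each companion list. Other genes named were chosen after their values were seen.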

Additional observations from a re-analysis of the deposited data

Results flagged for a closer look

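Within each group of 4 arrays, the gap between an outlying array and its nearest neighbour was divided by the whole range for the named rows. It exceeded Dixon's 95% critical value in 2 of 84 groups, where chance gives about 1 in 20, or 4.2. ATP5MC3 had a ratio of 0.955 in siESRP, where replicate 3 was 1664 and the other arrays ran from 989 to 1019. TOMM40 had a ratio of 0.83 in siESRP, where replicate 2 was 1463 and the others ran from 1247 to 1284. The siESRP arrays of TOMM40, that one included, stayed below all siGFP arrays.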

How the results depend on the processing

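None of the 8 called subunit rows changed direction in any alternative run. The number of subunit rows called moved by over 1.5 times in several settings. It was 1 on the deposited scale (0 higher, 1 lower, NDUFB10), 5 with median scaling (4 lower), 2 at adjusted p under 0.01 (0 higher, 2 lower) and 3 with the replicate number as a block (2 lower), of which 2 were among the 8. The block also ended the calls of MFN1 (adjusted p = 0.0924) and CS (0.134). Leaving out 1 array gave 5 to 10 calls, 1 to 2 higher and 4 to 8 lower, with 5 calls (4 lower) without siESRP replicate 1 or siGFP replicate 3. Calls over all rows were then 2719 to 3793. Of the 10 calls without siGFP replicate 2, 6 were among the 8. Without the dimmest 25% of rows 2 rows were higher. The pseudocount of 16, trended and robust eBayes, array weights and, chosen after seeing the data, bright rows only gave 8 to 11 calls. The same-numbered samples did not deviate together (correlations 0.206, 0.0691, −0.194 and −0.034), so the numbers do not pair the samples. Some samples of different number did: siESRP replicate 1 correlated at 0.503 with siGFP replicate 3, and siESRP replicate 2 at 0.308 with siGFP replicate 4. The lowest correlation was −0.346, between siESRP replicate 1 and siGFP replicate 2. The main fit leaves out such links between the groups, and their source was not tested. With single arrays left out, the subunit median lay between −0.14 and −0.07.

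Direction was followed for the named rows. Those of them that reversed passed in none of the settings run, and subunit rows not named were not followed. UQCRC2 was 0.02 on the deposited scale, 0.01 with median scaling, 0.02 with array weights, 0.02 without siESRP replicate 3, and 0.00 without siESRP replicate 4 or siGFP replicate 1. UQCRQ was −0.01 with array weights, −0.00 without siESRP replicate 3 and −0.03 without siGFP replicate 1. COX7B2 was 0.26 with array weights and 0.68, 0.41 and 0.13 without siESRP replicate 2, siGFP replicate 1 and siGFP replicate 4. ATP5MC2 was 0.02 without siESRP replicate 1, and COX4I2 was −0.08 without siGFP replicate 1. With single arrays left out, UQCRC2 reached from −0.05 to 0.02, UQCRQ from −0.03 to 0.31, COX7B2 from −0.84 to 0.68 and COX4I2 from −0.08 to 0.51. The cause was not tested. NDUFA4 and NDUFA4L2 had no row, so counting them with complex I changed nothing.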
